A study of Mus musculus with 4 samples.

Results

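The clustered protocadherins are cadherin-like adhesion proteins of the neuronal surface, encoded by the alpha, beta and gamma gene clusters that lie one after the other on a single chromosome. Each neuron switches on its own small set of these promoters, in a choice that involves the insulator protein CTCF, cohesin and DNA methylation. The proteins bind their own kind across cell contacts, which lets a neuron tell its own branches from those of other cells, and they take part in dendrite branching, axon targeting and neuron survival. Alpha and gamma transcripts join a variable exon to constant exons shared within the cluster, while each beta gene is a separate transcript without that constant part.

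The members were the probe sets whose platform annotation gives only symbols starting with Pcdha, Pcdhb or Pcdhg. The rule found 23 of the 35556 probe sets in the table, 1 of the alpha cluster, 22 of the beta cluster and 0 of the gamma cluster, which was not analysed here. The alpha probe set carries 14 symbols, from Pcdha1 to Pcdhac2, so its value is that of the alpha genes jointly and no alpha isoform can be read alone. The C-type isoforms Pcdhac1 and Pcdhac2 are among those 14 and have no value of their own. Pcdhb1 to Pcdhb22 have a probe set each, which is every beta gene of the mouse gene table used for names. The beta genes are close paralogs, and signal shared between them through similar probes was not tested, since no probe sequences were used.

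The ethanol arrays held whole-brain RNA of fetuses at embryonic day 16 whose mothers were injected with ethanol (2.5 g per kg in saline), and the control arrays that of fetuses of mothers given the same volume of saline, on gestational days 14 and 16 in both. All were C57BL/6J, an inbred laboratory strain, and the labels give the sex as unknown. RNA of 3 mice was pooled for each of the 4 Affymetrix whole-transcript arrays, 2 ethanol and 2 control, from 12 mice in all. The sources used here do not say which litters entered a pool, and p-values therefore cover only the spread between these pools. In whole brain, fewer cells that use a gene and less RNA per cell cannot be told apart.

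Values are the deposited log2 signals, and a difference is always the ethanol mean minus the control mean on that scale. The array medians over the whole table lay between 8.01 and 8.04. Neuron markers were present on all arrays as the tissue label implies: 14 of 14 had a probe set, with a median log2 level of 12.4 and 12.4 in ethanol 1 and ethanol 2 and of 12.3 and 12.4 in control 1 and control 2. Control 1 stood apart from the other arrays. Xist, a noncoding RNA made from the inactive X chromosome, had a log2 level of 12.0 and 12.8 in ethanol 1 and ethanol 2, against 6.10 in control 1 and 12.8 in control 2. Over the 12 skeletal muscle markers, the log2 of the summed signal was 11.1 and 12.7 in the ethanol pools, against 14.2 in control 1 and 11.0 in control 2. The main results on the protocadherins are therefore also given without control 1. Ethanol 2, whose muscle signal was also above that of ethanol 1 and control 2, remains in that set.

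No clustered protocadherin passed the test over the whole table, and the median of the beta cluster stood slightly above 0 with all arrays and slightly below 0 without control 1. The median difference of the 22 beta probe sets was 0.09 (range -0.15 to 0.32), beside 0.008 over the whole table, and 18 of the 22 were above 0, as were 53.5% of the whole table. Without control 1 the median was -0.02 and 10 of the 22 were above 0, beside 53.3% of the whole table. The alpha probe set differed by -0.04 ± 0.08 (SE, 2 arrays per group). The probe sets farthest from 0 were Pcdhb6 at 0.32 and Pcdhb17 at 0.30, and these kept most of their difference without control 1.

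Limma called 0 of the 35556 probe sets at an adjusted p under 0.05, or 0.0%, and 0 of the 23 members, with 0.994 as their smallest adjusted p. Before adjustment 4 members of 23, or 17.4%, had a p under 0.05, where the share was 3.95% over the whole table and 1.75% over the probe sets with a gene symbol. Without control 1 that count was 0, beside 2.53% of the whole table. The ordinary test per probe set, without shared variance, also called 0 members after adjustment. The unadjusted rule asked for that p and for a fold of 1.2 or more. It was met by 2 members higher in ethanol, 8.7%, beside 1.13% of the whole table and 0.333% of the probe sets with a symbol. In the other direction 0 members met it, beside 1.66% and 0.478%. Without control 1, 0 members met it in either direction, where the whole table had 1.16% and 1.37%.

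**Figure D1:**
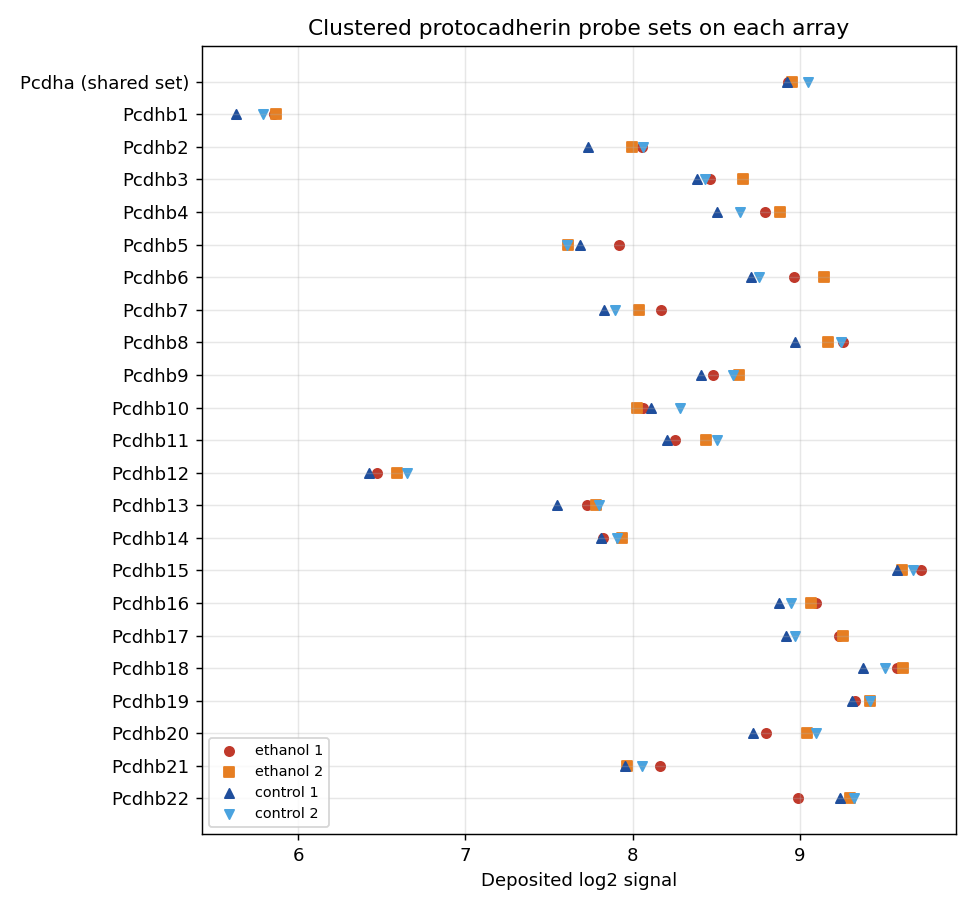
Deposited log2 signal (x axis) of the 23 clustered protocadherin probe sets (y axis, in order along the clusters) on each of the 4 arrays, 1 marker per array. Control 1 is the lowest marker in 20 of the 23 rows, and both ethanol markers lie right of both control markers in 8.

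The alpha probe set, the joint reading of the 14 alpha genes, had log2 levels of 8.93 and 8.95 in ethanol 1 and ethanol 2, against 8.92 and 9.05 in control 1 and control 2. Both ethanol values lay between the control values, so the groups overlapped. The 95% interval of the difference ran from -0.25 to 0.17, which leaves room for a change of either sign of that size. Without control 1 the difference was -0.11.

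Both ethanol arrays lay above both control arrays in 8 members, all of them beta genes, or 34.8%, where 16.8% of the whole table and 16.9% of the probe sets with a symbol did. These were Pcdhb1, Pcdhb3, Pcdhb4, Pcdhb6, Pcdhb7, Pcdhb16, Pcdhb17 and Pcdhb18. Both ethanol arrays lay below both control arrays in 1 member, Pcdhb10, or 4.35%, where 14.7% of the whole table did. The difference of the means was above 0 and larger than the gap within either group in 6 of the 23 members, or 26.1%, beside 9.96% of the whole table. It was below 0 and larger than those gaps in 0 members, beside 9.24%. These beta genes have no separate well-established function, and all encode single-exon adhesion proteins with cadherin repeats outside the cell.

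Pcdhb6 had the largest positive difference. Its log2 levels were 8.97 and 9.14 in the ethanol pools, against 8.71 and 8.75 in the control pools. Both ethanol values lay above both control values, and the gap between the groups was wider than that between the control pools. The difference was 0.32 ± 0.09, or 1.25-fold, with a 95% interval of 0.08 to 0.56 and an adjusted p of 0.994 (limma). It was 0.30 without control 1, and with any single array left out it stayed between 0.23 and 0.41.

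Pcdhb17 had the smallest standard error of the members. Its ethanol pools stood at 9.23 and 9.26 (log2 level) and its control pools at 8.92 and 8.97, so that the groups did not overlap and each group spanned only a small part of the difference. That difference was 0.30 ± 0.07, or 1.23-fold, with a 95% interval of 0.12 to 0.49 and an unadjusted p of 0.00896, the smallest among the members. The adjusted p in limma was 0.994. Leaving out an array gave 0.28 to 0.33, with 0.28 without control 1.

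Pcdhb4 and Pcdhb7 were the other members with an unadjusted p under 0.05 in limma. On the deposited values neither reached a fold of 1.2 (1.199 for Pcdhb4 and 1.183 for Pcdhb7). The log2 levels of Pcdhb4 were 8.79 and 8.88 in the ethanol pools, against 8.51 and 8.64 in the control pools, a difference of 0.26 ± 0.09. For Pcdhb7 they were 8.17 and 8.04 in the ethanol pools, against 7.83 and 7.89 in the control pools, a difference of 0.24 ± 0.08. In both genes all ethanol values exceeded all control values, and the differences without control 1 were 0.19 for Pcdhb4 and 0.21 for Pcdhb7. Their limma intervals ran from 0.03 to 0.49 and from 0.02 to 0.46, with an adjusted p of 0.994 each.

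The remaining 4 of the 8 had smaller differences. Pcdhb16 stood at log2 levels of 9.10 and 9.07 in the ethanol pools, against 8.88 and 8.95 in the control pools, and differed by 0.17 ± 0.07. Pcdhb18 stood at 9.58 and 9.61 in the ethanol pools, against 9.38 and 9.51 in the control pools, and differed by 0.16 ± 0.08. In both, control 2 lay nearer to the ethanol pools than control 1 did, and the differences without control 1 were 0.13 for Pcdhb16 and 0.09 for Pcdhb18. Pcdhb3 had log2 levels of 8.46 and 8.66 in the ethanol pools, against 8.39 and 8.43 in the control pools, a difference of 0.15 ± 0.09 that was 0.13 without control 1 and 0.05 without ethanol 2. Pcdhb1, the first beta gene, stood at 5.86 and 5.87 in the ethanol pools, against 5.63 and 5.79 in the control pools, a difference of 0.15 ± 0.09. It was the only member whose mean fell below the lower quartile of the whole table (6.48), where differences depend on the background correction, and its difference without control 1 was 0.07.

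Below 0 stood 4 beta genes. Pcdhb10 had log2 levels of 8.06 and 8.03 in the ethanol pools, against 8.11 and 8.28 in the control pools. Both ethanol values were lower than both control values, and the difference was -0.15 ± 0.09 with a 95% interval of -0.38 to 0.08. Without control 1 it was -0.24. Pcdhb22, the last gene of the cluster, stood at 8.99 and 9.30 in the ethanol pools, against 9.24 and 9.32 in the control pools. Its ethanol 1 value was low and its ethanol 2 value lay between the controls, and its difference was -0.14 ± 0.12 (-0.18 without control 1). Pcdhb11 and Pcdhb12 had differences of -0.008 and -0.005, and their signs turned with the scaling or the array left out. For Pcdhb12 the log2 levels were 6.47 and 6.59 in the ethanol pools, against 6.43 and 6.65 in the control pools, near the lower quartile of the whole table.

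The other 10 beta genes had differences of 0.009 (Pcdhb19) to 0.13 (Pcdhb2) and overlapping groups. Pcdhb20 varied most, with log2 levels of 8.80 and 9.04 in the ethanol pools, against 8.72 and 9.10 in the control pools, and its difference of 0.01 had an SE of 0.16. The 95% interval of Pcdhb20 ran from -0.41 to 0.44, and its difference without control 1 was -0.18. Pcdhb2 was low in control 1 alone, with log2 levels of 8.06 and 7.99 in the ethanol pools, against 7.73 and 8.06 in the control pools, and its difference without control 1 was -0.03. Pcdhb5 was high in ethanol 1 alone, at 7.92, with 7.62 in ethanol 2, against 7.69 and 7.61 in the control pools, and its difference was -0.03 without ethanol 1. Pcdhb15 stood at log2 levels of 9.72 and 9.61 in the ethanol pools, against 9.58 and 9.68 in the control pools, and differed by 0.04 ± 0.08 (-0.01 without control 1). The remaining 6, Pcdhb8, Pcdhb9, Pcdhb13, Pcdhb14, Pcdhb19 and Pcdhb21, lay between 0.009 and 0.10.

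**Figure D2:**
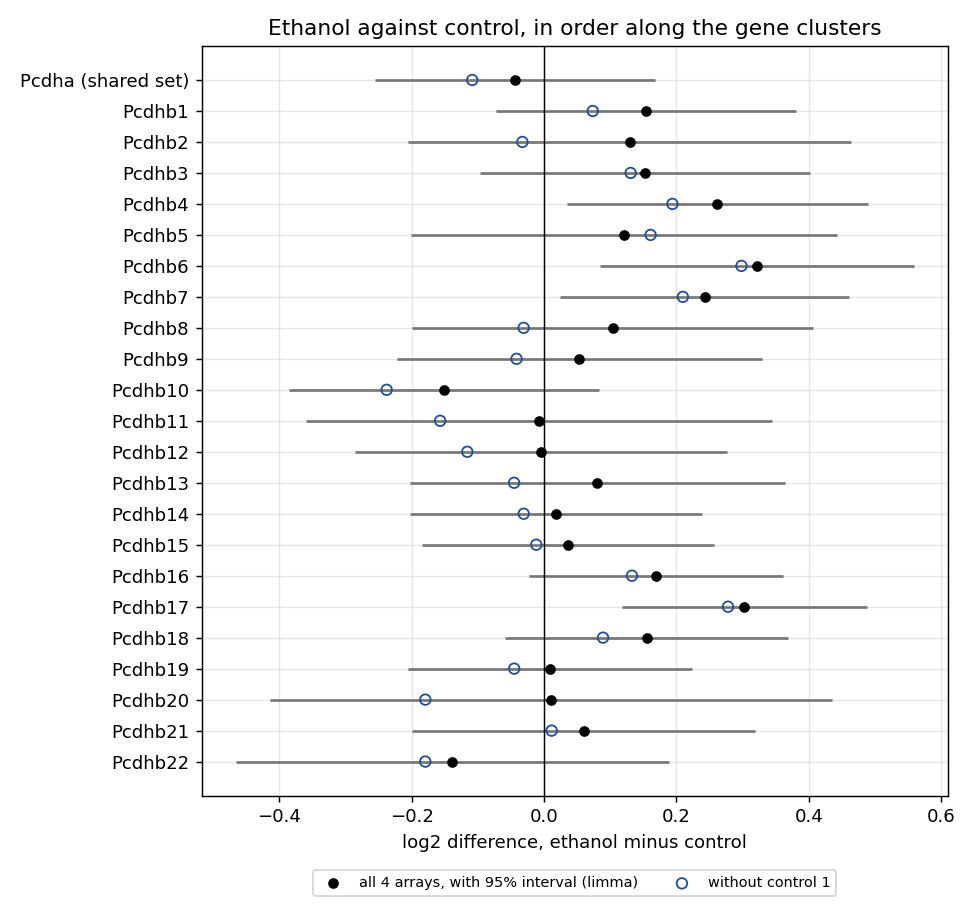
Log2 difference, ethanol minus control (x axis), of each probe set in order along the clusters (y axis), as filled points with 95% limma intervals. Open points leave out control 1. Pcdhb4, Pcdhb6, Pcdhb7 and Pcdhb17 have intervals above 0 before adjustment, and 12 of the 22 beta genes lie below 0 without control 1.

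Along the cluster, the differences were not evenly placed. Pcdhb1 to Pcdhb9 were above 0 in 9 of 9 genes, with a median of 0.15. Pcdhb10 to Pcdhb15 were above 0 in 3 of 6, with a median of 0.007, and Pcdhb16 to Pcdhb22 in 6 of 7, with a median of 0.06. Without control 1 the counts above 0 were 6 of 9, 0 of 6 and 4 of 7, and the medians 0.13, -0.08 and 0.01. These stretches were chosen after the values were seen, so no test was made of them.

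Between single arrays, the beta cluster separated control 1 from the other 3 arrays. Control 1 was the lowest of the 4 arrays in 19 of the 22 beta genes and in the alpha probe set, or 87% of the members, where 30.8% of the whole table had control 1 lowest. Ethanol 1 exceeded control 1 in 20 of 22 beta genes (median difference 0.19), beside 57.8% of the whole table. Ethanol 2 did so likewise in 20 of 22 (median 0.22), beside 46.5%. Ethanol 1 exceeded control 2 in 12 of 22 (median 0.02), beside 57.8%, and ethanol 2 in 11 of 22 (median 0.004), beside 45.2%. Within the control group, control 1 exceeded control 2 in 1 of 22 (median -0.12, range -0.38 to 0.08), beside 47.8% of the whole table. Within the ethanol group, ethanol 1 exceeded ethanol 2 in 8 of 22 (median -0.04), beside 60.2%. The median of -0.12 between the 2 control pools compares single arrays, while that of 0.09 between the groups compares means of 2 arrays. Their sizes are therefore not directly comparable.

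Without control 1, both ethanol arrays lay above control 2 in 9 of 23 members, 39.1% beside 31.0% of the whole table, and both below it in another 9, beside 28.1%. Without control 2, both ethanol arrays lay above control 1 in 20 members, or 87%, where 37.0% of the whole table did, and both below it in 1, beside 32.8%. An exact permutation of 2 against 2 arrays cannot give a two-sided p under 0.333, and no p is given for a value over the cluster.

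**Figure D3:**
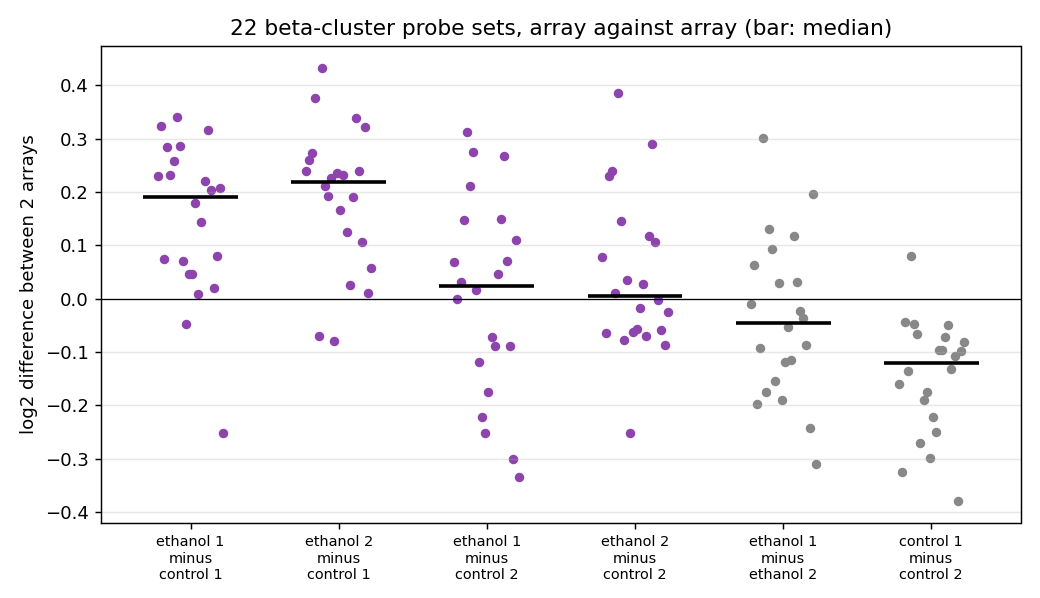
Log2 difference between 2 arrays (y axis) for the 22 beta probe sets, 1 point per gene, for each of the 6 pairs of arrays (x axis), with the median as a bar. Both ethanol pools lie above control 1 in 20 of 22 genes, while against control 2 the points fall on either side of 0.

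The muscle markers and the pericyte, fibroblast and meningeal markers were highest in control 1. Ethanol 2 exceeded control 2 in 11 of 12 and in 7 of 12 of them, beside 45.2% of the whole table. The excess was at least 2-fold in 4 muscle markers and in 3 of the other list. The 12 skeletal muscle markers had probe sets in 12 of 12 and were highest in control 1 in 12 of 12. The 12 pericyte, fibroblast and meningeal markers were also highest in control 1 in 12 of 12, with a log2 summed signal of 13.1 and 13.4 in the ethanol pools, against 13.9 and 13.2 in the control pools. In each of these 2 lists 0 of 12 markers had a difference above 0, beside 53.5% of the whole table. Without control 1, 11 of 12 muscle markers and 9 of 12 in the other list were above 0, beside 53.3%. In the neuron list, control 1 was the lowest array in 8 of 14, beside 30.8% of the whole table. Its median difference from control 2 was -0.06, beside -0.12 for the beta genes and -0.007 for the whole table. The log2 summed signal of the neuron list was 16.33 and 16.31 in the ethanol pools, against 16.26 in control 1 and 16.33 in control 2. Among muscle genes, the myosins Myh3 and Myh8 differed by -1.15 ± 1.24 and -0.94 ± 0.93 and the giant sarcomere protein Ttn by -0.99 ± 1.04, with SEs about as large as the differences. In the meningeal list the aminopeptidase Anpep stood at -0.50 ± 0.27 and the proteoglycan Lum at -0.43 ± 0.70. Ptgds, a prostaglandin synthase of the meninges, differed by -0.42 ± 0.11 and met the unadjusted rule, as did 1 other listed gene, Tubb3. The Y-linked gene Uty stood at 9.75 and 8.81 in the ethanol pools, against 10.3 and 8.72 in the control pools, and Kdm5d and Eif2s3y were likewise highest in control 1. The part of these tissues and of the sex make-up of the pools in the protocadherin values was not tested.

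Among other markers, 6 of 6 serotonin neuron markers with a probe set were above 0 (median 0.04), beside 53.5% of the whole table. Their differences ran from 0.01 to 0.08, with SEs of 0.07 to 0.16. Serotonin neurons are known for strong use of Pcdhac2, which has no value of its own here. Control 1 was the lowest array in 5 of these 6 markers, beside 30.8% of the whole table. Without it 4 of 6 were above 0 (median 0.03), beside 53.3%. Tph2, the serotonin synthesis enzyme, differed by 0.07 ± 0.10, the transcription factor Lmx1b by 0.08 ± 0.07 and the amine oxidase Maob by 0.05 ± 0.08. The neuron list had a median of 0.01, with 8 of 14 above 0. Tubb3, a neuronal tubulin, had log2 levels of 11.2 and 11.5 in the ethanol pools, against 11.7 and 11.7 in the control pools (difference -0.38 ± 0.12, adjusted p = 0.994 in limma). Snap25, a synaptic fusion protein, differed by 0.19 ± 0.10, with both ethanol arrays above both controls, and Gap43, a growth cone protein, by 0.11 ± 0.08. Of 11 neural progenitor markers 4 were above 0 (median -0.02), with the topoisomerase Top2a at -0.27 ± 0.22, the kinase Cdk1 at -0.25 ± 0.20 and the NOTCH target Hes5 at 0.16 ± 0.11.

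Cadherins and protocadherins outside the clusters had a median slightly below 0. Of 35 with a probe set 13 were above 0 (median -0.03), beside 53.5% of the whole table. In limma 0 passed after adjustment and 0 had an unadjusted p under 0.05. The unadjusted share was 3.95% over the whole table and 1.75% over the probe sets with a symbol. Both ethanol arrays lay above both controls in 3 of the 35 and below in 6, where the whole table had 16.8% and 14.7%. Pcdh8, an activity-regulated protocadherin, had log2 levels of 8.95 and 8.80 in the ethanol pools, against 8.48 and 8.82 in the control pools, so that control 1 was again the low array (difference 0.22 ± 0.14). Pcdh9, a protocadherin of the delta group, stood at 11.5 and 11.6 in the ethanol pools, against 11.7 and 11.7 in the control pools (difference -0.18 ± 0.07, with a second probe set at -0.13). Cdh5, the cadherin of endothelial cells, was high in control 1 and differed by -0.20 ± 0.16. Control 1 was the lowest array in 18 of these 35 genes, beside 30.8% of the whole table. It lay below control 2 in 26 of 35 (median -0.05), as it did in 18539 of the 35556 probe sets in the whole table.

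Of 22 genes for the choice and silencing of protocadherin promoters, 4 were above 0 and 18 below (median -0.06). The share above 0 over the whole table was 53.5%. At an adjusted or an unadjusted p under 0.05 in limma 0 passed. The unadjusted share was 3.95% over the whole table and 1.75% over the probe sets with a symbol. Both ethanol arrays lay below both controls in 5 of the 22 and above in 2, where the whole table had 14.7% and 16.8%. Ctcf, the insulator protein that binds the cluster promoters and enhancers, had log2 levels of 10.6 and 10.7 in the ethanol pools, against 10.8 and 10.8 in the control pools. Both ethanol values were lower, and the difference was -0.14 ± 0.08. The cohesin subunits Smc3 and Stag2 stood at -0.15 ± 0.10 and -0.17 ± 0.09, in each case with both ethanol arrays below both controls and control 1 highest. Control 1 was the highest array in 15 of the 22 genes, where 9576 of the 35556 probe sets in the whole table had it highest. In the beta cluster it was highest in 0 of 22. A link between these regulators and the beta genes was not tested. Without control 1 the median of these regulators was -0.02. Dnmt3b, the DNA methyltransferase that acts on these promoters in early mouse embryos, differed by 0.08 ± 0.09, and Smchd1, a silencing protein of the clusters, by -0.08 ± 0.09.

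Of 21 genes for cytoplasmic partners and for cleavage of the proteins, 7 were above 0 (median -0.01), beside 53.5% of the whole table. After adjustment 0 passed in limma. An unadjusted p under 0.05 was found in 2, beside 3.95% of the whole table and 1.75% of the probe sets with a symbol. One was Aph1a, a gamma-secretase subunit, with log2 levels of 10.4 and 10.4 in the ethanol pools, against 10.7 and 10.6 in the control pools (difference -0.23 ± 0.08, with a second probe set at -0.23). The other was Axin1, a WNT pathway scaffold that binds a gamma protocadherin, at -0.23 ± 0.09. Fyn, a kinase that associates with alpha protocadherins, differed by -0.21 ± 0.10. In all 3 genes both ethanol arrays lay below both control arrays, as in 7 of the 21 genes, beside 14.7% of the whole table. Both lay above in 3 of the 21, beside 16.8%.

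Of 22 genes that flank the clusters or lie between them, 12 were above 0, beside 53.5% of the whole table. Their median of 0.03 hardly moved without control 1 (0.03) or without control 2 (0.04). Both ethanol arrays lay above both controls in 6 of the 22 and below in 2, where the whole table had 16.8% and 14.7%. In the beta cluster those counts were 8 and 1 of 22. Between the beta and gamma genes lie Taf7, a subunit of the general transcription factor TFIID, and Slc25a2, a mitochondrial ornithine carrier. Taf7 had log2 levels of 7.65 and 7.64 in the ethanol pools, against 7.60 and 7.44 in the control pools (difference 0.12 ± 0.08). Its groups did not overlap, and control 2, not control 1, was the low array. Slc25a2 was high in ethanol 1 alone, at 7.34, with 6.78 in ethanol 2, against 7.01 and 6.89 in the control pools, and differed by 0.11 ± 0.20. On the alpha side, Tmco6 differed by 0.22 ± 0.07 (unadjusted p = 0.0291, adjusted p = 0.994 in limma) and the lipopolysaccharide co-receptor Cd14 by 0.15 ± 0.08. On the gamma side, Rnf14, a ubiquitin ligase that binds the androgen receptor, differed by 0.16 ± 0.10. Control 1 was the lowest array in 6 of the 22 neighbours, beside 19 of 22 beta genes and 30.8% of the whole table.

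**Figure D4:**
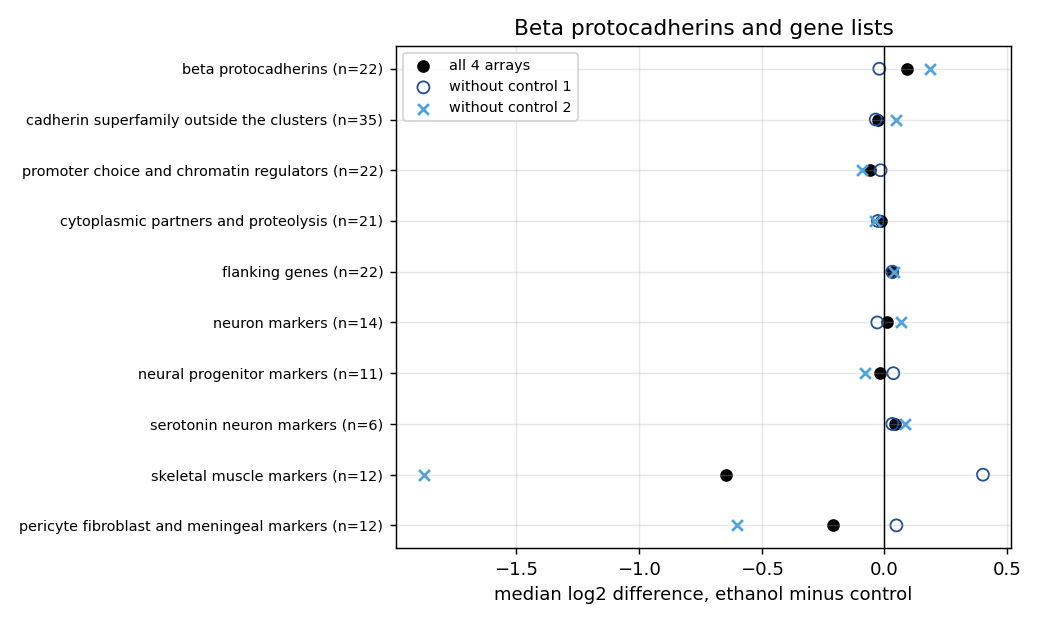
Median log2 difference, ethanol minus control (x axis), of the 22 beta protocadherins and of 9 gene lists (y axis, with the number of genes), with all 4 arrays (filled), without control 1 (open) and without control 2 (cross). The beta median is 0.09, -0.02 and 0.19 in these settings, and the muscle list moves most.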

How the data were processed

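The deposited table gives a log2 signal for each probe set on each array, where base 2 is an inference from how far the values range. The submitters' processing notes name Partek 6.6. Background correction, normalization, summary method and genome build are details not given in the sources used here. The table has 0 columns of other samples.

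Probe sets were named from the platform annotation, in which 21789 have 1 symbol, 1621 several and 12146 none. For the gene lists, older symbols were replaced by way of their Entrez identifier in a GRCm38.p6 gene table (21698 of 21789 matched), which otherwise served only for gene order, and the probe set with the highest mean represented a gene. Of 171 listed genes, 159 had a probe set.

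All 35556 probe sets were fitted with limma 3.58.1 in R 4.3.3 (lmFit, eBayes without trend, two-sided, 2 residual degrees of freedom and 4.69 in total), with Benjamini-Hochberg adjustment over the table and a threshold of 0.05. The code of the fit was run on simulated data with independent noise and added folds. That run had no outlying array and does not test the design. The number of arrays limits the precision. The members, the 10 gene lists and the rule for named genes were chosen with earlier results of these data known. That rule took, per cluster, joint and C-type probe sets, members past the unadjusted rule (p under 0.05 and 1.2-fold or more), the largest differences in each direction and the highest and lowest levels, and, per list, up to 3 genes of largest difference. Some further genes were named for their role after their values were seen. Alternatives were other scalings, fits, filters and folds, a replicate block and leaving out each array.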

Additional observations from a re-analysis of the deposited data

How the results depend on the processing

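The count of called members, and of called probe sets in the whole table, was 0 under every alternative run. The 2 members past the unadjusted rule became 1 in the ordinary test, 0 when 1.5-fold was asked for, 4 with no fold minimum and 0 to 4 with an array left out. The 2 listed genes past it became 0, 0 and 5 in those settings, 4 with crossed pairing as a block (chosen after seeing the data) and 1 to 21 with an array left out. With an array left out, members with ethanol above control numbered 9 to 20, those below 1 to 9, the beta median ran from -0.02 to 0.19 and the alpha value from -0.11 to 0.021. Quantile normalization turned Pcdhb11 to 0.0088, and median centring turned Pcdhb12 to 0.00088. Signs also turned when an array was left out, with ranges of -0.033 to 0.29 (Pcdhb2), -0.030 to 0.27 (Pcdhb5), -0.031 to 0.24 (Pcdhb8), -0.041 to 0.15 (Pcdhb9), -0.16 to 0.14 (Pcdhb11), -0.12 to 0.11 (Pcdhb12), -0.045 to 0.21 (Pcdhb13), -0.039 to 0.075 (Pcdhb14), -0.022 to 0.095 (Pcdhb15), -0.045 to 0.063 (Pcdhb19), -0.18 to 0.20 (Pcdhb20), -0.038 to 0.16 (Pcdhb21) and -0.29 to 0.016 (Pcdhb22). The cause of these changes of sign was not tested. No label says that equal replicate numbers mark a pair, and the correlation of deviations between equally numbered arrays was -0.281. In the fit with a replicate block 0 members were called and 2 passed the unadjusted rule.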
